A study of Mus musculus with 477 samples.

Results

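Integrin and laminin subunits were examined in single mammary cells processed on the Fluidigm C1, a microfluidic device with a separate chamber for every cell. The members were all genes of the deposited count table whose symbol names an integrin alpha or beta subunit or a laminin alpha, beta or gamma chain. Of 21004 genes in the table, 37 met this rule: 18 alpha subunits, 8 beta subunits and 11 laminin chains. The members were chosen by name, and no measured value entered the choice.

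The study put 312 luminal cells from 7 mice and 165 tumor cells from 4 mice into 10 groups. All mice were females of a mixed C57BL/6 and 129/Sv background that carried MMTV-Cre, whose MMTV promoter drives Cre in the mammary epithelium. The genotype Br was *MMTV-Cre*; *Brca1* fl/fl, the genotype 53 was *MMTV-Cre*; *Trp53* fl/+, and Br53 joined both sets of floxed alleles. In group names v stands for virgin, p for day 12.5 of pregnancy, L for luminal cells and T for tumor. Luminal cells came from mice of 3 to 4 months in the groups vBrL, pBrL, vBr53L, pBr53L, v53L and p53L. Each group held 1 mouse except pBrL, whose 2 mice are called pBrL-1 and pBrL-2. The tumors BrT1, BrT2, Br53T1 and Br53T2 were taken at a diameter of around 1 cm, and the labels used here give no age for them. The luminal mice with genotype 53 are the only ones with wild type *Brca1*, and no mouse without Cre was included.

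Integrins are receptors made of an alpha and a beta subunit that link the cytoskeleton to the extracellular matrix. Laminins are the large cross-shaped glycoproteins of basement membranes, each built from an alpha, a beta and a gamma chain. In the mammary gland the basal myoepithelial cells rest on this membrane and make most contacts with it, whereas luminal cells face the duct, and integrins that bind laminin are needed for normal alveolar development. The surface protein CD29 is the integrin beta1 subunit encoded by *Itgb1*.

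Luminal cells were sorted as CD24 high, CD29 low and positive for the membrane GFP of a Cre reporter, while tumor cells were sorted as CD24 positive without a CD29 gate. Any tumor against luminal difference in *Itgb1*, or in a gene that moves with it, is therefore confounded with the sort, and the part of the gate cannot be told apart from the tissue. The transcript of the other sort marker, *Cd24a*, ranged from 1087 to 1940 CPM in luminal mice and from 260 to 1034 CPM in tumors. CPM means a level scaled to 1000000 reads, here the reads of a gene summed over the cells of a mouse relative to all reads of that mouse.

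The summed reads per mouse ranged from 40338926 to 115827852, and the reads per cell from 170209 to 3550564. The cells were made into libraries in 8 batches, and only SC6 mixed tissues, with pBrL-2 and the tumor Br53T2. The batches SC7 and SC9 each held the virgin and the pregnant mouse of 1 genotype. Transcripts of the deleted gene did not separate the genotypes, since *Brca1* ranged from 2.03 to 31.8 CPM in *Brca1*-deficient luminal mice and from 5.21 to 6.99 CPM in the 2 others. Counts per gene include exons outside the floxed region. The 6 luminal markers summed to 8660 CPM or more in each luminal mouse, and to between 846 CPM (BrT1) and 6578 CPM (Br53T2) in tumors. The 8 basal markers reached 5597 CPM in Br53T2, against at most 472 CPM elsewhere. The 7 mesenchymal markers reached 9465 CPM for BrT1 and 6542 CPM for BrT2, with 588 CPM for Br53T2, 159 for Br53T1 and at most 104 CPM in luminal mice. The 7 fibroblast markers reached 5038 CPM for BrT1, 712 CPM for vBrL and 579 CPM for vBr53L, with 176 CPM for v53L, 101 for Br53T2 and at most 25.4 CPM elsewhere. *Dcn*, which encodes decorin, alone made up 86.5% of this sum in BrT1 and 99.9% or more in vBrL, vBr53L and v53L.

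*Itgav*, *Itga6*, *Itgb1* and *Itgb6* were the 4 members with a median of at least 100 CPM over the 7 luminal mice. At the other end, 11 members stayed under 10 CPM in every mouse: *Itga1*, *Itga2b*, *Itga4*, *Itga10*, *Itgad*, *Itgal*, *Itgam*, *Itgax*, *Itgb7*, *Lama2* and *Lamc3*. No member was at 0 in all mice. After each cell was thinned to 100000 reads, a luminal cell had reads of a median of 5 members (range 1 to 12) and a tumor cell of a median of 10 (range 4 to 18). Over all genes, the thinned luminal cells had reads of a median of 3480 genes and the tumor cells of 4224.

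**Figure D1:**
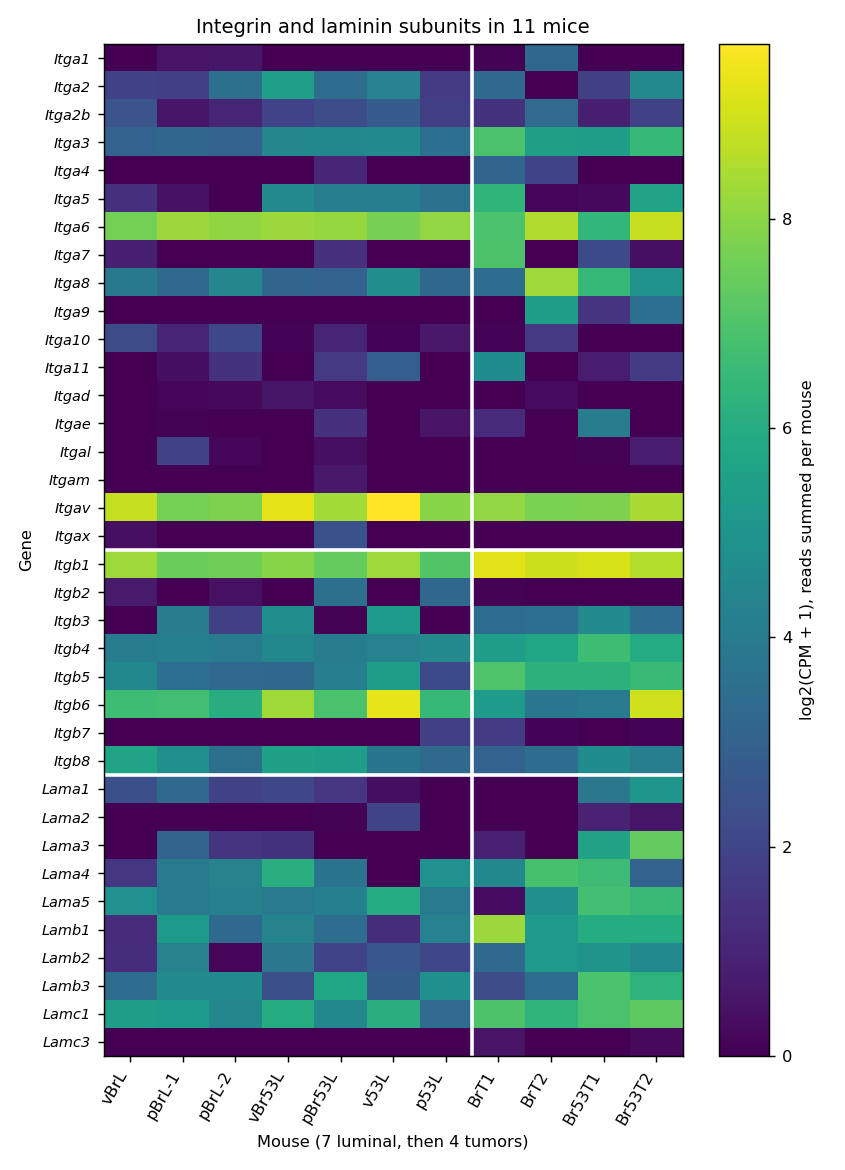
Level of 36 of the 37 members (rows) in each of the 11 mice (columns) as log2(CPM + 1), with white lines between luminal mice and tumors and between alpha subunits, beta subunits and laminin chains. *Itgav*, *Itga6* and *Itgb1* are bright in all mice, whereas *Itga7*, *Itga8*, *Itga9* and *Lama3* are bright in single tumors or pairs of tumors.

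The tumor cells were compared with the luminal cells of the 5 *Brca1*-deficient mice, to see which subunits differ between mutant luminal cells and mutant tumors. *Itgb5*, which encodes a beta subunit that pairs with alphav to bind vitronectin, rose in tumors and was the only member called. *Itgb4*, *Itga3*, *Lamc1* and *Itgb1* were also higher in each of the 4 tumors than in any of the 5 luminal mice, yet none of these passed the correction over all genes. *Itga6* and *Itgav*, the leading alpha subunits, showed no such separation.

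*Itgb5* (chromosome 16, 33829665 to 33949338, GRCm38, the assembly also named mm10) had 21.6 CPM for vBrL, 10.7 for pBrL-1, 8.94 for pBrL-2, 8.56 for vBr53L and 16.7 for pBr53L. In tumors it had 128 CPM for BrT1, 73.3 for BrT2, 72.9 for Br53T1 and 94.2 for Br53T2. The lowest tumor was thus well above the highest of these luminal mice, and also above the 40.5 CPM of v53L and the 3.56 CPM of p53L. The means were 92.1 CPM ± 26.1 (SD, n = 4) and 13.3 CPM ± 5.65 (SD, n = 5), and the log2 difference was 2.64 ± 0.42 (SE). The adjusted p was 0.0226 (edgeR quasi-likelihood test, Benjamini-Hochberg over all genes tested), and 13 of 21 alternative settings kept the call, with adjusted p from 3.1e-07 to 0.42. Leaving out BrT1, pBrL-1, pBrL-2 or pBr53L raised it to 0.0553, 0.0743, 0.0647 and 0.0731.

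Of the 37 members, 26 passed the low-count filter in this comparison and 1 was called, where 0.609% of all 12978 tested genes were called. The call was in the higher direction, as were 0.393% of all genes, and 0 members were called lower, beside 0.216% of all genes. No overlap between the arms was seen for 5 of the 26 tested members, all higher in tumors, where 5.01% of all tested genes were higher and 2.51% lower without overlap. The median log2 difference of the tested members was 1.38, beside 0.06 over all tested genes, and 19 of 26 were above 0, beside 52.6% of all genes. At an unadjusted p under 0.05 there were 10 members (13.8% of all genes), 9 higher (7.98%) and 1 lower (5.8%). DESeq2 called 7 members, beside 6.23% of all genes, and limma 2, beside 2.28%. A member could pass the filter through its level in tumors alone, so these counts describe the tested members only.

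The laminin receptors came first. *Itgb4* encodes the beta4 subunit, which pairs with alpha6 only and anchors hemidesmosomes. It had 15.7 CPM for vBrL, 17.2 for pBrL-1, 14.4 for pBrL-2, 22.1 for vBr53L and 16.2 for pBr53L, and 40.5 CPM for BrT1, 50.3 for BrT2, 101 for Br53T1 and 60 for Br53T2. Its level was even across luminal mice, and each tumor lay above all of them. The log2 difference was 1.73 ± 0.40 (SE), with an edgeR adjusted p of 0.0754.

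*Itga3* encodes the alpha3 subunit, which pairs with beta1 to bind laminins such as laminin-511. Its luminal levels were 7.14 CPM for vBrL, 8.18 for pBrL-1, 7.13 for pBrL-2, 21 for vBr53L and 22 for pBr53L. Its tumor levels were 119 CPM for BrT1, 44.1 for BrT2, 41.5 for Br53T1 and 88.2 for Br53T2. The 2 Br53 luminal mice were the highest of the luminal 5, and all tumors were above them. The log2 difference was 2.30 ± 0.55 (SE), with an edgeR adjusted p of 0.0839.

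*Itgb1* encodes beta1, the common partner of most alpha subunits. It had 307 CPM for vBrL, 179 for pBrL-1, 192 for pBrL-2, 244 for vBr53L and 167 for pBr53L, and 602 CPM for BrT1, 492.8 for BrT2, 547 for Br53T1 and 377 for Br53T2. The arms did not overlap, with vBrL the highest luminal mouse and Br53T2 the lowest tumor. The log2 difference was 1.08 ± 0.28 (SE), with an edgeR adjusted p of 0.117, and the CD29 gate applies to the luminal arm alone.

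*Itga6*, the alpha6 partner of both beta1 and beta4, ran from 199 to 294 CPM over the 7 luminal mice, with a median of 277. The tumors split around that range. BrT1 had 120 CPM and Br53T1 83.1, both under every luminal mouse, while BrT2 had 368 and Br53T2 455, both over every luminal mouse. *Itga7*, another laminin-binding alpha subunit known from muscle, was at or under 1.62 CPM in all luminal mice and had 123 CPM for BrT1, 0 for BrT2, 3.50 for Br53T1 and 0.308 for Br53T2. A single cell held 59.6% of the BrT1 reads of *Itga7*, but 46.8% of the 47 BrT1 cells had a read of it after thinning (95% exact Clopper-Pearson interval 32.1% to 61.9%).

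Levels of different genes can only be set side by side per length, so CPM was divided by the annotated exon length in kilobases. On that scale *Itga6* exceeded *Itgb4* by 8.70 to 14.2 times in the 7 luminal mice, or 16.1 to 26.3 times with the longest annotated transcript as the length. The ratio was 2.30 for BrT1, 5.68 for BrT2, 0.638 for Br53T1 and 5.89 for Br53T2. With the longest transcript it was 4.26, 10.53, 1.18 and 10.9, so the length used decided which of both chains was higher in Br53T1, and under either length the 4 tumors had lower ratios than the 7 luminal mice. Reads of both chains were found in 22.1% of luminal cells and 50.3% of tumor cells. These shares count detection in thinned cells, and the reads carry no molecular identifiers, so the intervals given cover counting error only.

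**Figure D2:**
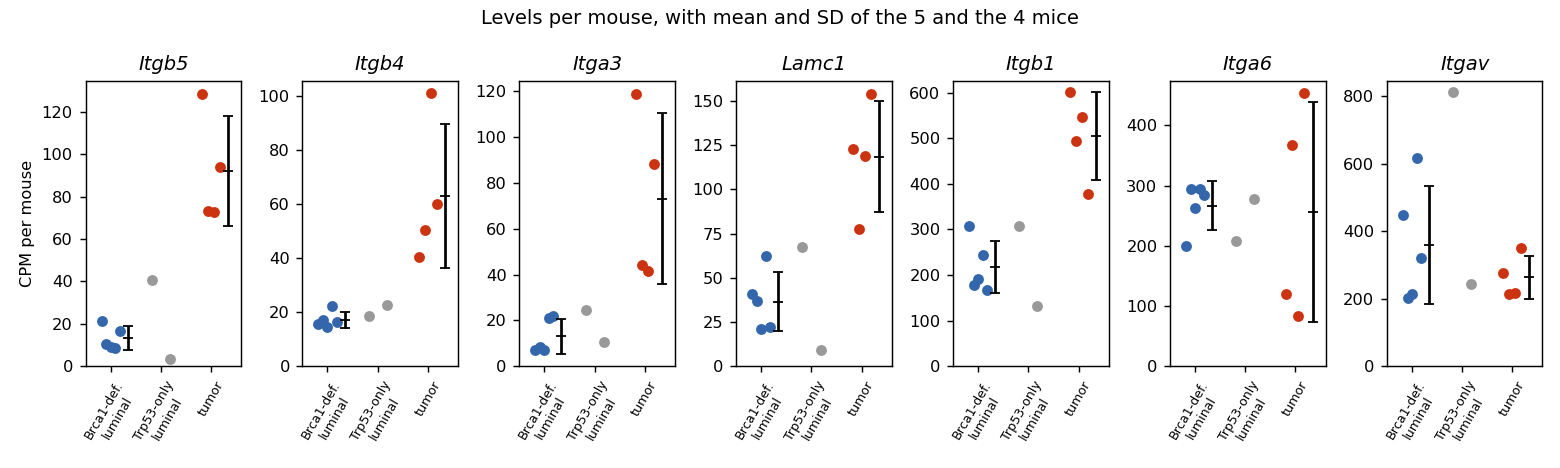
CPM per mouse (points) of *Itgb5*, *Itgb4*, *Itga3*, *Lamc1*, *Itgb1*, *Itga6* and *Itgav* in the 5 *Brca1*-deficient luminal mice, the 2 *Trp53*-only luminal mice and the 4 tumors, with the mean and SD beside the 5 and the 4. The first 5 genes do not overlap between blue and red points, whereas *Itga6* and *Itgav* do.

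The upstream sequences of some of these genes are shown because *Itgb5*, *Itga3* and *Itgb1* were higher in all 4 tumors and *Itgb6*, described next, differed between tumors. RefSeq promoters on GRCm38.p6 were matched for 23 of the 37 members, with 26 start sites. The 250 bases before each start were searched on both strands for the GC box GGGCGG, the AP-1 motif TGANTCA and the TATA box TATAAA. A GC box was present in 9 of the 26 windows, beside 32.7% of all 32851 promoters of the table. The AP-1 motif was in 1 window (*Itgax*), beside 6.75% of all, and the TATA box in 0, beside 12.4% of all. The sequences below are from chr16:33829415-33829664 (plus strand), chr11:95076715-95076964 (minus), chr8:128685404-128685653 (plus) and chr2:60722604-60722853 (minus), with GC boxes of either strand in capitals. *Itgb5* held 3 GC boxes, *Itga3* 3, *Itgb1* 1 and *Itgb6* 0, which describes these letters and not a use of the sites.
Itgb5: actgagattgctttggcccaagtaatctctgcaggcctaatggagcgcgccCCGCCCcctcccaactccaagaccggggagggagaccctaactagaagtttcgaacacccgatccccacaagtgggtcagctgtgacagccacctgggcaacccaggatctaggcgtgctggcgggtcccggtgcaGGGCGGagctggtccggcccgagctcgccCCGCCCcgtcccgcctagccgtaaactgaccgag
Itga3: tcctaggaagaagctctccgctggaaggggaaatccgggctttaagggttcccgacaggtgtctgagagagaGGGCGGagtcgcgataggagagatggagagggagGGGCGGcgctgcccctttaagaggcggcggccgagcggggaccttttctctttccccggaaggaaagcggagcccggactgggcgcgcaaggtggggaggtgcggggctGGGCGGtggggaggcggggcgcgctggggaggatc
Itgb1: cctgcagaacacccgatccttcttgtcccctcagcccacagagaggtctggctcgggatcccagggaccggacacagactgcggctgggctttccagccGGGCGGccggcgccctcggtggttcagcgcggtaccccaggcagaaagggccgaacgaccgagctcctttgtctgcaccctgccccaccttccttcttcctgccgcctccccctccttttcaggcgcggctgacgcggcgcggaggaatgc
Itgb6: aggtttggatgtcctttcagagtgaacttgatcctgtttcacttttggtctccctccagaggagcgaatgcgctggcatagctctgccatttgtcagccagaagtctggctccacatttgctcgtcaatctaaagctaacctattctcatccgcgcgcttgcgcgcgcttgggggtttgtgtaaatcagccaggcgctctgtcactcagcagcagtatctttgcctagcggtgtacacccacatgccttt

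The subunits that bind RGD motifs in fibronectin, vitronectin and latent TGF-beta did not share a direction. All 8 of them were tested, 5 had a log2 difference above 0, beside 52.6% of all genes, and *Itgb5* was called, beside 0.609%. *Itgb6* encodes the epithelial beta6 subunit, which pairs with alphav and activates latent TGF-beta. It ranged from 64.8 to 636 CPM in luminal mice with a median of 105, and had 39.8 CPM for BrT1, 13.02 for BrT2, 15.1 for Br53T1 and 501 for Br53T2. The first 3 tumors lay under every luminal mouse and Br53T2 lay over all but v53L. In BrT1 a single cell held 89.3% of the *Itgb6* reads, in BrT2 1 cell held 100% and in Br53T1 1 cell held 75.8%.

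Per kilobase, *Itgb6* made up 57.2% to 86.9% of the 4 beta subunits other than beta1 that pair with alphav (*Itgb3*, *Itgb5*, *Itgb6*, *Itgb8*) in the 7 luminal mice. *Itgb5* made up 82.1% of them in BrT1, 81.99% in BrT2 and 70.7% in Br53T1. Br53T2 kept the luminal order, with 70.3% *Itgb6* and 26.5% *Itgb5*, although its *Itgb5* level in CPM was the second highest of all mice. The leading subunit of each mouse was the same when the longest annotated transcript was taken as the length.

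**Figure D3:**
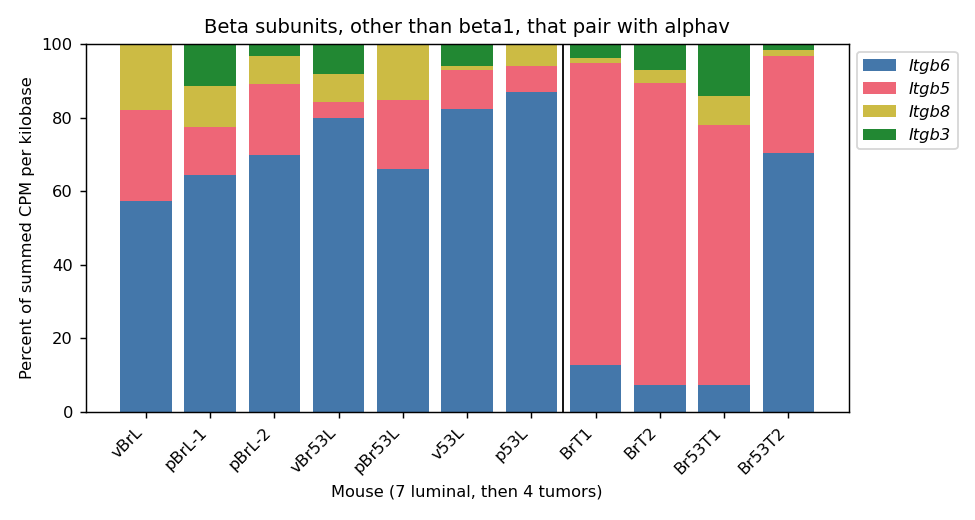
Share of each beta subunit in the summed CPM per kilobase of *Itgb3*, *Itgb5*, *Itgb6* and *Itgb8*, for each mouse, as stacked bars that add up to 100%. *Itgb6* leads in all luminal mice and in Br53T2, and *Itgb5* leads in BrT1, BrT2 and Br53T1.

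*Itgb3*, another alphav partner, ran from 0 to 38.6 CPM in luminal mice and from 9.60 to 24.1 CPM in tumors, so its ranges overlapped. *Itgav*, the alphav subunit itself, ran from 201 to 814 CPM in luminal mice with a median of 319, and from 213 to 349 CPM in tumors with a median of 245. The ranges overlapped, and 91.7% of luminal cells and 95.2% of tumor cells had a read of it. *Itgb8*, which encodes another alphav partner, ranged from 9.27 to 48.6 CPM in luminal mice and had 7.32 CPM for BrT1, 9.84 for BrT2, 25.2 for Br53T1 and 16.6 for Br53T2. Its log2 difference was -1.41 ± 0.59 (SE), with an edgeR adjusted p of 0.317.

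*Itga8*, an alpha subunit that pairs with beta1 and binds nephronectin, ran from 7.22 to 26.6 CPM in luminal mice with a median of 8.81. In tumors it had 10.3 CPM for BrT1, 306 for BrT2, 85.1 for Br53T1 and 30.4 for Br53T2. Only BrT1 lay within the luminal range. The high level of BrT2 was spread over its cells, since 94.6% of the 37 cells had a read and no cell held more than 9.45% of the reads. The log2 difference was 3.16 ± 0.86 (SE), with an edgeR adjusted p of 0.13.

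*Itga5* and *Itga9* were chosen after their values were seen. *Itga5*, the fibronectin receptor subunit, had 79.4 CPM for BrT1 and 48.6 for Br53T2 but 0.120 for BrT2 and 0.146 for Br53T1, beside 0 to 22.2 CPM in luminal mice. In Br53T2 a single cell held 63.5% of the *Itga5* reads, and a single cell 58.2% of the *Itga9* reads. In BrT1 no cell held more than 13.3% of the *Itga5* reads. *Itga9*, which binds tenascin, was at or under 0.0144 CPM in all luminal mice and had 0 CPM for BrT1, 40.5 for BrT2, 1.80 for Br53T1 and 10.6 for Br53T2. It did not pass the low-count filter with all tumors, and it was the 1 member called when BrT1 was left out, where it passed the filter through the other 3 tumors alone.

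Among the 12 alpha subunits that can pair with beta1, *Itga6* and *Itgav* together led in every luminal mouse per kilobase. In luminal mice *Itga6* took 20.2% to 59.7% and *Itgav* 34.3% to 66.5%. BrT1 was more even, with *Itgav* at 25.8%, *Itga3* at 21%, *Itga5* at 16.3%, *Itga7* at 15.3% and *Itga6* at 13.4%. With the longest transcript as length *Itgav* still led in BrT1, followed by *Itga7* at 20.6%, *Itga6* at 18.7%, *Itga3* at 16.4% and *Itga5* at 12.1%. BrT2 had *Itga8* at 35.7% and *Itga6* at 35.1%, an order that turned with the longest transcript. Br53T1 had *Itgav* at 40.7%, *Itga8* at 23.4% and *Itga6* at 18.7%, of which the last 2 changed places with the longest transcript, and Br53T2 had *Itga6* at 42.9% and *Itgav* at 27.7%.

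The collagen-binding alpha subunits were low. *Itga2* ranged from 2.25 to 43.3 CPM in luminal mice and from 0 to 22.6 CPM in tumors. *Itga1* and *Itga10* stayed under 10 CPM, and the 25.1 CPM of *Itga11* in BrT1 came to 99.7% from 1 cell. Of the 4, 3 were tested, 0 were called by edgeR and 0 had an unadjusted p under 0.05, beside 0.609% and 13.8% of all genes. The 7 subunits of leukocyte integrins were near 0 in most mice. The highest value among them was the 15.9 CPM of *Itgae* in Br53T1, of which 1 cell held 66.7%. Their sum was at most 18.05 CPM (pBr53L), and 1 cell held 99.9% of the *Itgb2* reads in pBr53L, where the level was 10.9 CPM, and 100% in p53L, where it was 8.60 CPM. The 9 immune markers summed to 304 CPM for pBr53L and to at most 112 CPM in the other mice, and the part of immune cells, which the study depleted with endothelial cells before the sort, in these values was not tested.

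The laminin chains followed. *Lamc1*, the gamma1 chain shared by most laminins, had 40.7 CPM for vBrL, 37.2 for pBrL-1, 20.9 for pBrL-2, 62.1 for vBr53L and 21.9 for pBr53L. In tumors it had 123 CPM for BrT1, 77.7 for BrT2, 119 for Br53T1 and 154 for Br53T2. All tumors were above all 7 luminal mice, of which v53L was the highest with 67.2 CPM. The fitted log2 difference was 1.54 ± 0.39 (SE), with an edgeR adjusted p of 0.105. Of the 9 laminin chains tested, all 9 had a log2 difference above 0, with a median of 1.54, and 0 were called by edgeR, while DESeq2, which called 6.23% of all genes, called *Lamb1* and *Lamc1*. At an unadjusted p under 0.05 there were 3, beside 7.98% of all genes in this direction.

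*Lamb1*, the beta1 chain, ran from 1.27 to 38.1 CPM in luminal mice with a median of 9.92. It had 293 CPM for BrT1, 36.7 for BrT2, 61.7 for Br53T1 and 62.3 for Br53T2, and 93.6% of BrT1 cells had a read of it. BrT1 stood out, and BrT2 lay just under the highest luminal mouse, pBrL-1. In pBrL-1 a single cell held 90.5% of the *Lamb1* reads, and the next luminal mouse was vBr53L with 19.3 CPM. On the log2 scale the difference was 2.69 ± 0.87 (SE), with an edgeR adjusted p of 0.195.

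The 5 laminin alpha chains, which decide what receptors a laminin can bind, differed from tumor to tumor. *Lama4* ran from 0.0248 to 65.5 CPM in luminal mice with a median of 15.4, and had 22.1 CPM for BrT1, 116 for BrT2, 98.0 for Br53T1 and 7.24 for Br53T2. *Lama5* ran from 14.6 to 62.9 CPM in luminal mice with a median of 17.2, and had 0.265 CPM for BrT1, 28.2 for BrT2, 108 for Br53T1 and 89.5 for Br53T2. BrT1 was thus nearly without *Lama5*, with reads in 1 cell only, whereas the Br53 tumors had more of it than any luminal mouse. *Lama1* ran from 0 to 8.94 CPM in luminal mice and had 0.011 CPM for BrT1, 0 for BrT2, 13.2 for Br53T1 and 32.96 for Br53T2. *Lama2* never passed 2.93 CPM. The beta2 chain *Lamb2* ran from 0.0909 to 18.8 CPM in luminal mice and from 8.77 to 35.8 CPM in tumors.

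*Lama3*, the alpha3 chain of epithelial basement membranes, had 0 CPM for vBrL, 7.78 for pBrL-1, 1.77 for pBrL-2, 1.69 for vBr53L, 0.00993 for pBr53L, and 0 for v53L and p53L. In tumors it had 0.828 CPM for BrT1, 0.020 for BrT2, 46.9 for Br53T1 and 163 for Br53T2. In pBrL-1, pBrL-2 and vBr53L a single cell held 94.8% or more of the reads. Both Br53 tumors thus lay above every luminal mouse and both Br tumors lay within the luminal range.

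*Lamb3* had 9.65 CPM for vBrL, 23.1 for pBrL-1, 24.2 for pBrL-2, 4.16 for vBr53L, 50.2 for pBr53L, 6.22 for v53L and 28.3 for p53L, and 3.86 CPM for BrT1, 10.1 for BrT2, 120 for Br53T1 and 76.1 for Br53T2. *Lamb3*, the beta3 chain, was thus detected in all mice, and both Br53 tumors lay above every other mouse.

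A laminin is assembled from 3 chains, so the cells with a read of every chain were counted, after thinning each cell to 100000 reads. The chains of laminin-411 (*Lama4*, *Lamb1*, *Lamc1*) were found together in 17.0% of BrT1 cells, 16.2% of BrT2 cells, 46.7% of Br53T1 cells and 3.92% of Br53T2 cells, beside 0.641% of luminal cells. Without thinning these shares were 31.9%, 29.7%, 63.3% and 31.4%, beside 2.88%, so the low share of Br53T2 was seen only after thinning. Those of laminin-511 (*Lama5*, *Lamb1*, *Lamc1*) were found together in 0 of 47 BrT1 cells (which allows a share of up to 6.38% by 3 counts of the total, or 7.55% by the exact interval), 10.8% of BrT2 cells, 36.7% of Br53T1 cells and 13.7% of Br53T2 cells, beside 0.321% of luminal cells. Without thinning they were 2.13%, 29.7%, 63.3% and 45.1%, beside 2.24%.

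**Figure D4:**
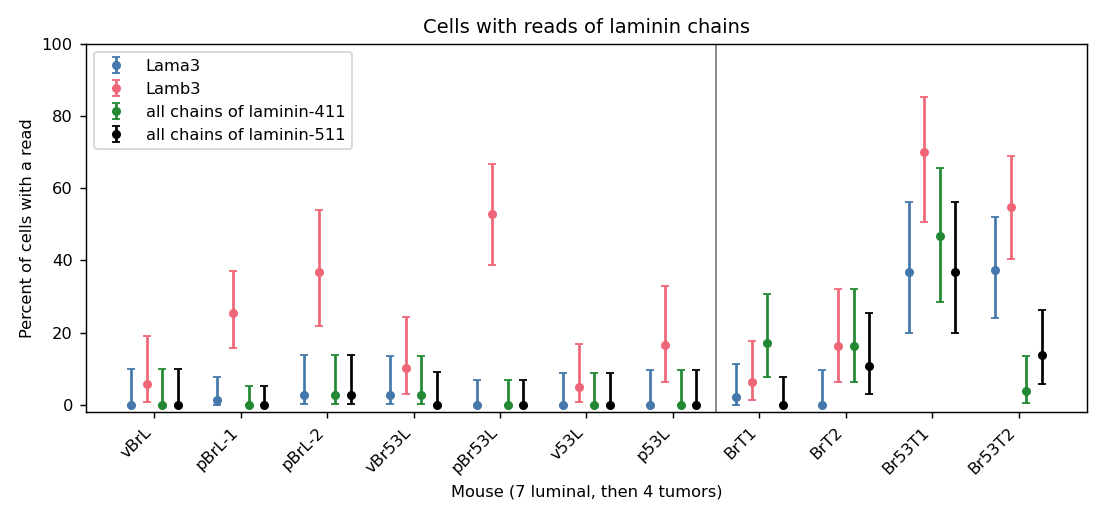
Percent of cells with a read of *Lama3*, of *Lamb3*, or of all 3 chains of laminin-411 or laminin-511 in each mouse (horizontal axis), after thinning to 100000 reads per cell, with exact 95% binomial intervals as bars. The chains of laminin-411 meet most often in Br53T1 (46.7%), as do those of laminin-511 (36.7%).

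Within library batch SC6, which holds the tumor Br53T2 and the luminal mouse pBrL-2, 23 of the 26 tested members were higher in the tumor, beside 54.7% of all genes tested. *Itgb5* had 94.2 against 8.94 CPM, *Itga3* 88.2 against 7.13, *Itgb4* 60 against 14.4, *Itgb1* 377 against 192 and *Lamc1* 154 against 20.9. With 1 mouse on each side no test was possible, and for these 5 members the direction was fixed by their choice. For the other 3 tumors, batch and tumor cannot be told apart.

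The genes around these receptors were read from lists of the pathway. Of 26 focal adhesion and integrin activation genes, 23 were tested, 0 were called, 2 were higher and 1 lower at an unadjusted p under 0.05 (edgeR), beside 7.98% and 5.8% of all genes, and *Rsu1* and *Zyx* were higher in all tumors without overlap (5.01% of all genes). A log2 difference above 0 was found for 22 of the 23, beside 52.6% of all genes, with a median of 0.53, beside 0.06. Per kilobase of exon, *Actn4*, an actin cross-linker, had the highest level of this list in BrT2 (113 CPM per kilobase) and *Zyx* in Br53T1 (80.8, beside 77.8 for *Actn4*). *Actn1*, a close relative of *Actn4*, was highest in BrT1 with 51.8 and in Br53T2 with 70.4 CPM per kilobase. Of 8 hemidesmosome and laminin receptor genes, 8 were tested, 0 were called and 4 had an unadjusted p under 0.05 (edgeR), all higher, where 7.98% of all genes were. *Plec*, which links beta4 to keratin filaments, had the highest level per kilobase in 3 tumors, with 105 CPM per kilobase for BrT1, 78.9 for Br53T1 and 49.9 for Br53T2. In BrT2 *Dag1*, which encodes dystroglycan, had 23.2 and *Plec* 22.2 CPM per kilobase, and *Cd151* was highest when the longest transcript was taken as the length.

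Of the 16 other basement membrane genes, 14 were tested, 0 were called, 7 were higher at an unadjusted p under 0.05 (edgeR), beside 7.98% of all genes, and 6 were higher in tumors without overlap, beside 5.01%. The median log2 difference of the tested genes was 2.80, beside 0.06 over all genes. *Sparc*, a collagen-binding matrix protein, had the highest level of the list in all 4 tumors, with 226 CPM per kilobase for BrT1, 102 for BrT2, 237 for Br53T1 and 207 for Br53T2. Of the 19 matched ligands other than laminins, 16 were tested and 1 was called. This was *Edil3*, an RGD protein bound by alphav beta3 and alphav beta5, with 0 reads in all 7 luminal mice and 87.9 CPM for BrT1, 13.4 for BrT2, 23.1 for Br53T1 and 9.74 for Br53T2 (edgeR adjusted p = 0.0213). It passed the filter through the tumors alone. *Spp1*, the RGD protein osteopontin, had the highest level of the 18 ligands with a length in 3 tumors, with 3894 CPM per kilobase for BrT1, 3468 for BrT2 and 7726 for Br53T1. In Br53T2 it was *Cdh1*, which encodes E-cadherin, with 171 CPM per kilobase, or *Mfge8*, an RGD protein of milk fat globules, with 258 when the longest transcript was taken as the length. The mesenchymal marker sum given above was high in BrT1 and BrT2, the fibroblast marker sum in BrT1 and the basal marker sum in Br53T2, and their part in these levels was not tested. Fewer cells of a type and less RNA per cell cannot be told apart in the sums per mouse.

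The luminal cells of 4 pregnant mice were then compared with those of 3 virgin mice, with genotype as a covariate, to see whether pregnancy changed the adhesion genes. *Itgav*, *Itgb1* and *Lamc1* were lower and *Lamb3* was higher in all pregnant than in all virgin mice, but no member was called by edgeR. DESeq2 called *Itgav*, *Itgb3* and *Lamb3*, beside 7.67% of all genes, and limma called 0 members and 0% of all genes. Of the 25 members tested, 6 had an unadjusted p under 0.05, beside 9.74% of all genes, with 1 higher (5.07% of all genes) and 5 lower (4.67%). Of all 12615 genes tested, 0.0159% were called. No overlap was seen for 4 members lower in pregnancy, beside 5.58% of all genes, and for 1 higher, beside 6.32%. The median log2 difference of the tested members was -0.65, beside 0.12 over all genes, and 9 of 25 were above 0, beside 55.2% of all genes.

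*Itgav* had 447 CPM for vBrL, 617 for vBr53L and 814 for v53L, and 201 for pBrL-1, 214 for pBrL-2, 319 for pBr53L and 244 for p53L. The lowest virgin mouse was thus above the highest pregnant mouse. The fitted log2 difference was -1.21 ± 0.25 (SE), with an edgeR adjusted p of 0.226 and a range from 0.00071 to 0.57 over the alternatives.

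*Itgb1* had 307 CPM for vBrL, 244 for vBr53L and 308 for v53L, and 179 for pBrL-1, 192 for pBrL-2, 167 for pBr53L and 133 for p53L. Both arms had passed the same CD29 gate, and the difference was smaller than that of *Itgav*, at -0.77 ± 0.26 (log2, SE) at an adjusted p of 0.453 by edgeR. Inside batch SC7 *Itgb1* had 244 CPM in the virgin and 167 CPM in the pregnant mouse, and inside SC9 308 and 133 CPM.

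The laminin chains did not move together. *Lamc1* had a mean of 56.7 CPM ± 14.04 (SD, n = 3) in virgin and 22.4 CPM ± 11.4 (SD, n = 4) in pregnant mice, with -1.48 ± 0.61 (log2, SE) at an adjusted p of 0.501 by edgeR. *Lamb3* had 6.68 CPM ± 2.77 (SD, n = 3) and 31.5 CPM ± 12.7 (SD, n = 4), with 2.23 ± 0.73 (log2, SE) at an adjusted p of 0.447 by edgeR.

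*Itgb6* was lower in the pregnant mice of 2 genotypes, with 310 against 118 CPM in Br53 (batch SC7) and 636 against 87.1 CPM in 53 (batch SC9). In genotype Br the virgin mouse had 99.4 CPM and the pregnant mice 105 and 64.8, so the arms overlapped. On the log2 scale the difference was -1.36 ± 0.52 (SE), with an edgeR adjusted p of 0.48. Within SC7 as within SC9, 17 of the 25 tested members were lower in the pregnant mouse, beside 48.5% and 49.6% of all genes tested.

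**Figure D5:**
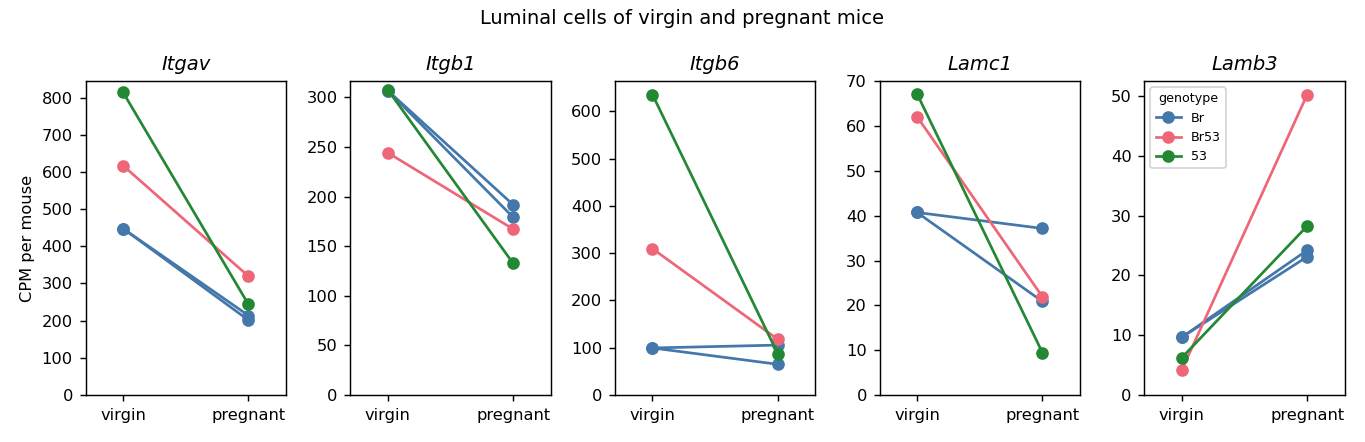
CPM (vertical axes) of 5 members in luminal cells of virgin and pregnant mice, with lines joining each pregnant mouse to the virgin mouse of its genotype (Br, Br53 or 53). *Itgav*, *Itgb1* and *Lamc1* are lower at each line's pregnant end, *Lamb3* is higher, and *Itgb6* goes from 99.4 CPM to 105 and 64.8 CPM in Br.

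No member of the 8 RGD-binding subunits had a log2 difference above 0 in pregnancy, beside 55.2% of all genes. Of the 8, 0 were called, beside 0.0159%, and 2 were lower at an unadjusted p under 0.05 (edgeR), beside 4.67%. The 8 hemidesmosome and laminin receptor genes had 7 tested, 0 called, 2 lower at an unadjusted p under 0.05 (edgeR), beside 4.67% of all genes, and 3 lower without overlap (*Bcam*, *Dst* and *Plec*), beside 5.58%. Of the 26 focal adhesion genes, 23 were tested, 0 were called and 1 was lower at an unadjusted p under 0.05 (edgeR), beside 4.67% of all genes. Without overlap *Itgb1bp1* and *Lims1* were higher and *Actn1*, *Tns2* and *Tns3* lower in pregnancy, beside 6.32% and 5.58% of all genes. The fibroblast marker *Dcn* had 711 CPM for vBrL, 579 for vBr53L and 176 for v53L, and at most 25.4 CPM in pregnant mice, while 4, 5 and 5 of the 7 markers were at 0 in these virgin mice. The 8 basal markers summed to 108 CPM for vBrL, 73.3 for vBr53L and 0 for v53L, and to 472 for pBrL-1, 225 for pBrL-2, 160 for pBr53L and 102 for p53L. All 8 had a log2 difference above 0, with a median of 5.90 (0.12 over all genes), and 0 were called, 2 were higher at an unadjusted p under 0.05 (edgeR), beside 5.07% of all genes, and *Krt14* was higher without overlap. Of these markers 4, 3 and 8 were at 0 in the virgin mice and at most 2 in a pregnant mouse. The part of *Dcn* or of the basal markers in the members' differences was not tested.

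Tumors of the 2 genotypes, 2 mice each, were set against each other to see whether a floxed *Trp53* allele in addition went with another set of subunits. *Trp53* itself had 5.05 CPM in BrT1 and 49.8 in BrT2, labelled without a floxed *Trp53* allele, and 67.2 CPM in Br53T1 and 140 in Br53T2. The order thus ran against the labelled number of intact alleles, and the genotypes of the tumors are given here as labelled. No member passed the test, and the higher members with an unadjusted p under 0.05 included *Lama1*, *Lama3* and *Lamb3*. *Lama3* averaged 105 CPM ± 82.3 in Br53 and 0.424 CPM ± 0.571 in Br tumors (SD, n = 2 each), and *Lamb3* 98.2 ± 31.4 and 6.96 ± 4.38. *Lama1* averaged 23.1 CPM ± 13.99 and 0.00552 CPM ± 0.00781. In each case both tumors labelled Br53 were above both tumors labelled Br. Reads of *Lama1* were found in 5 of 30 Br53T1 cells, where 1 cell held 70.5% of them. In Br53T2 they were found in 7 of 51 cells, where 1 cell held 40.1%.

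No member and no other gene was called by edgeR in this comparison (0 of 29 members, 0% of 13477 genes). At an unadjusted p under 0.05 there were 5 members, 4 higher (*Lama1*, *Lama3* and *Lamb3* among them) and 1 lower (*Itga4*) in Br53, beside 3.98% of all genes, 2.4% higher and 1.58% lower. *Lama1* and *Lama3* were near 0 in the Br tumors and *Itga4* was at 0 in the Br53 tumors, so they could pass the filter only through the other arm, and these counts describe the tested members only. DESeq2 called 4 members, beside 2.34% of all genes, limma 0, beside 0%, and the fit without a low-count filter 5, beside 1.67%. Both arms hold 2 tumors, the pairs also differed in their marker genes, and batch cannot be told apart from tumor. Of 6 tested basal markers, 5 were higher in Br53 without overlap (*Acta2*, *Krt14*, *Krt17*, *Oxtr* and *Trp63*) and 0 lower. Of 7 tested mesenchymal markers, 0 were higher and 6 lower without overlap. The part of these markers in the members' differences was not tested. No overlap was seen for 8 tested members higher in Br53 and 1 lower, beside 19% and 12.9% of all genes. Of the higher ones, 6 were laminin chains. Among these, *Lama2* averaged only 0.692 CPM in Br53 tumors, and all its reads came from 1 cell in Br53T1 and 1 cell in Br53T2. A log2 difference above 0 was found for 16 of 29 members, beside 49.9% of all genes.

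The luminal cells of the 5 *Brca1*-deficient mice were last compared with those of the 2 *Trp53*-only mice, with stage as a covariate. No member was called (0 of 31, 0% of 13709 genes), and 0 members had an unadjusted p under 0.05 by edgeR, beside 5.97% of all genes, 3.63% higher and 2.33% lower. DESeq2 called 1 member, *Lama1*, beside 3.78% of all genes, and limma 0, beside 0%. *Lama1* was also the 1 member without overlap, with 1.92 to 8.94 CPM in the 5 and 0.297 and 0 CPM in the 2, beside 8.21% of all genes higher without overlap, and 0 members were lower without overlap, beside 3.12%. The fitted log2 difference was 5.29 ± 2.66 (SE), with an edgeR adjusted p of 0.778. The median over the tested members was 0.19, beside 0.13 over all genes, and 18 of 31 were above 0, beside 55.8% of all genes. Genotype 53 had a batch of its own, so batch and genotype cannot be told apart here.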

How the data were processed

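The values deposited were counts of reads, not normalized, for each gene in each cell. Per the labels and the study's methods, the authors filtered reads with sickle, trimmed them with Trim Galore 0.4.1, aligned them to mm10 with STAR 2.5.3a and counted them with Subread 1.5.3. The annotation, strand setting and filters before deposit were not given in the sources used here. The reads carry no molecular identifiers.

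Counts were summed per mouse, the replicate, and tested with edgeR 4.0.16 in R 4.3.3 (quasi-likelihood test, filterByExpr, TMM, Benjamini-Hochberg over all genes tested, called under 0.05). Gene lengths and positions came from GENCODE vM21, which matched all 37 members. Members were described mouse by mouse if called, if arms did not overlap and the higher arm averaged at least 10 CPM, or if a mouse reached 100 CPM. Genes of the lists that are no members were named if called, if highest of their list in a tumor per kilobase or, after their values were seen, where a printed count of genes without overlap was 5 or fewer. The results of 1 member are not reported here, although counts over members include it. The members and lists were chosen with earlier results of these data known. Simulated 8-fold changes were recovered for 39.3% of 191 changed genes in the tumor comparison (12638 genes in all). Between tumors it was 0% of 193 (12934 genes in all), for pregnancy 38.6% of 197, and between luminal genotypes 20% of 195. Simulated 64-fold changes were recovered for 82.3% of 198 changed genes in the tumor comparison and 40.4% of 193 between tumors. For pregnancy it was 73.3% of 195, and between luminal genotypes 65.8% of 193. The alternatives were RLE factors, library size alone, caseins left out, DESeq2 1.42.0, limma 3.58.1 on log2(mean CPM over cells + 1), no low-count filter, only cells with 2000 genes, 30 cells drawn per mouse, other arms and covariates, and leaving out each mouse. A test of whether the tumor difference depends on genotype was added after the data were seen.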

Additional observations from a re-analysis of the deposited data

Results flagged for a closer look

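The pregnant minus virgin difference of 2 laminin alpha chains had opposite signs in different genotypes with a size of at least 1 in each, on the log2(CPM + 1) scale, each pregnant mouse set against the virgin mouse of its genotype. *Lama4* was higher by 2.52 or more in both pregnant Br mice and by 4.86 in the pregnant 53 mouse, and its difference was -2.33 in the pregnant Br53 mouse. *Lama3* was higher by 1.47 or more in both pregnant Br mice, and its difference was -1.41 in the pregnant Br53 mouse. Smaller opposite differences of other members are not listed, and the difference between genotypes was not tested. For *Lama3* a single cell held 99.4% of the reads in pBrL-1, 97.1% in pBrL-2 and 94.8% in vBr53L. Among the 18 members described mouse by mouse, 36 sets of values (each member in the 7 luminal mice and in the 4 tumors) held 0 mice far from the rest by Dixon's criterion at the 95% level, where chance gives about 1.8.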

How the results depend on the processing

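In the tumor comparison the 1 member called became 7 with DESeq2, 2 with limma, and 0 with 30 cells drawn per mouse, with all 7 luminal mice, with the pregnant luminal mice only and with the virgin luminal mice only. It ranged from 0 to 1 when each mouse was left out (0 without pBrL-1, pBrL-2 or pBr53L, and *Itga9* in place of *Itgb5* without BrT1). In the pregnancy comparison the count of 0 became 3 with DESeq2 and 1, *Itgav*, without a low-count filter. Between tumors it became 4 with DESeq2 and 5 without that filter. Leaving out a tumor left 1 tumor in an arm, so only effect sizes are given for these fits. The log2 difference ranged from 6.79 to 12.1 for *Lama3* and from 1.64 to 8.55 for *Lama5*. Between luminal genotypes the count of members called became 1 with DESeq2. The cause was not tested. Over all genes the calls ranged from 0 to 808 around 79 in the tumor comparison (11 without pBrL-1), from 0 to 967 around 2 for pregnancy, from 0 to 315 around 0 between tumors and from 0 to 518 around 0 between luminal genotypes, the highest each time with DESeq2. Scaling by library size alone moved the median of all genes from 0.06 to 0.20 in the tumor comparison and from 0.13 to 0.30 between luminal genotypes. For the 24 log2 differences with no overlap or an unadjusted p under 0.05 among the 18 members described mouse by mouse, 384 alternative values kept direction and side of the threshold, 20 passed it anew, 8 lost it (all *Itgb5* in tumors) and 0 changed sign. Other members did change sign, as *Itgb6* in tumors, with log2 differences from -2.79 to 0.38. Thinning moved 35 of 72 shares of cells beyond their interval, and the longest transcript moved 4 of 36 levels per kilobase. Replicate numbers could not serve for a paired analysis, because the groups compared share fewer than 2 of them. Library batch in place of genotype, which compares the virgin and pregnant mice inside SC7 and SC9, called 0 members and 42 genes for pregnancy.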

Other observations

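Whether the tumor against luminal difference depended on the genotype was tested with an interaction term, a comparison chosen after the data were seen. Of 26 members tested, 0 had an edgeR adjusted p under 0.05, beside 1 of all 12978 genes tested. At an unadjusted p under 0.05 there were 2 members, *Lama1* and *Lama3*, beside 597 of the 12978 genes. *Lama1* had a log2 tumor minus luminal difference of -9.49 in Br and 2.95 in Br53, and the difference between them was 12.4 ± 2.44 (SE), with an edgeR adjusted p of 0.447. *Lama3* had -3.06 in Br and 6.74 in Br53, and a difference of 9.80 ± 3.92 (SE), with an edgeR adjusted p of 0.983. Both genes have tumors or luminal mice near 0, so the sizes of these fitted values depend on the prior count. The *Lama1* reads of the Br53 tumors came from 5 Br53T1 cells and 7 Br53T2 cells.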
